A study of Homo sapiens with 12 samples.

Results

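EBP, SC5D and DHCR7 encode the sterol isomerase, the desaturase and the reductase that act after the demethylation steps in the making of cholesterol. They were taken by symbol, matched to Ensembl gene identifiers, so that the 3 genes described here are 3 of the 58735 genes in the table of counts. Their RNA was measured in 12 libraries of polyA-selected RNA from 2 human endometrial cell lines: HEC-1A (HEC1A in the labels), an epithelial line from an endometrial adenocarcinoma, and T-HESC (THESC in the labels), stromal fibroblasts immortalised with telomerase. AG-205, a small molecule sold as a ligand of the membrane protein PGRMC1, was given at 15 µM during 32 h, and control cultures received its solvent DMSO, which the AG-205 cultures held too. There were 3 libraries in each of the 4 groups, from independent cultures, so each line stands for 1 donor and the spread described is between cultures. The question put to these libraries was which genes AG-205 changes in epithelial and in stromal endometrial cells.

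Cholesterol is made in the endoplasmic reticulum, and its last steps move, add and remove double bonds in the sterol ring. EBP (emopamil binding protein) shifts the first double bond, SC5D (sterol-C5-desaturase) then introduces another with electrons from cytochrome b5, and DHCR7 (dehydrocholesterol reductase) removes one with NADPH to give cholesterol or its near precursor. The substrate of DHCR7 is also the precursor of vitamin D in skin, and inherited loss of any of the 3 enzymes gives a malformation syndrome with its own sterol profile. EBP and DHCR7 also bind a number of unrelated drugs, EBP having been named after one of them. When membrane sterol is low, the retention protein INSIG releases the transcription factor SREBP2 with its escort protein SCAP. SREBP2 is then cut by proteases and turns on most genes of the pathway, together with factors that bind CCAAT and GC boxes.

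EBP (ENSG00000147155) lies on the plus strand of chromosome X of GRCh38 from 48521799 to 48528716, with 5 exons in its canonical transcript. SC5D (ENSG00000109929) lies on the plus strand of chromosome 11 from 121292681 to 121313410, also with 5 exons. DHCR7 (ENSG00000172893) lies on the minus strand of chromosome 11 from 71428193 to 71452868, with 9 exons. No pseudogene bears the name of any of them in GENCODE 44. On the strand of EBP, another gene of that annotation (ENSG00000286268) covers 36.4% of its exon length, and the antisense RNA ENSG00000254682 inside DHCR7 shares 0 exon bases with it and had at most 93 counts in a library. The table of counts has no row for ENSG00000286268, so reads in the shared exon sequence could be counted for EBP but not for that gene. Whether the counting used strand is not given in the sources used here.

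A stretch before an annotated RefSeq transcript start of each gene is shown because the 3 genes were higher with AG-205 in every library of both lines, and because genes of this pathway are commonly read through short elements close to their starts. The stretches come from the RefSeq promoter table (GRCh38.p14), which holds 300 bases per start, 250 before and 50 after it, with 1 window for EBP and 2 each for SC5D and DHCR7. GENCODE 44 has transcripts of SC5D and DHCR7 that start further upstream, so the DHCR7 stretch lies within the gene span given above, and the SC5D stretch runs past the start of that span. Each is printed 5′ to 3′ on the strand of its gene and stops before the first exon of a protein-coding GENCODE 44 transcript. Capitals mark CCAAT or its reverse complement ATTGG, and CACGTG.
EBP, chrX:48521558-48521798, plus strand: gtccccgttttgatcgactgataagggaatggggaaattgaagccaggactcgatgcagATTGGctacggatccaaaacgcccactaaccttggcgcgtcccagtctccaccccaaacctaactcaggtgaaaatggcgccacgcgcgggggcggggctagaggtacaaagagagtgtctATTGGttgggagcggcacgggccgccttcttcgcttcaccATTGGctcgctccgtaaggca
SC5D, chr11:121292521-121292770, plus strand: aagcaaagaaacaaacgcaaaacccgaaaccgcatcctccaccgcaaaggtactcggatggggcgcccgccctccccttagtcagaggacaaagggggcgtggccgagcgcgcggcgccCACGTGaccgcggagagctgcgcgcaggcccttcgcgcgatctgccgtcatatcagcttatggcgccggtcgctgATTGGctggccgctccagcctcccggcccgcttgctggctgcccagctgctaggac
DHCR7, chr11:71448436-71448643, minus strand: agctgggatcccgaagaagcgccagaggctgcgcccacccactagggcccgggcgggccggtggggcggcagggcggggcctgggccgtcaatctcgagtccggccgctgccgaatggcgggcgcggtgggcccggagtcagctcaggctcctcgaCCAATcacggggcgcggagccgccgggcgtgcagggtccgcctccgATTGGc

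On both strands, 5 motifs were searched for: the sterol regulatory element in a long form, the shorter form TCACNCCAC that each match of the long form contains, the E-box CACGTG, the CCAAT box and the GC box GGGCGG. Neither form of the sterol regulatory element was found in the 5 windows, where 0.0456% (long) and 1.13% (short) of 35116 windows of all genes held them. CCAAT, present in 34.6% of all windows, was found before a RefSeq start of each of the 3 genes: its first base lay 191, 70 and 30 bases before the start of EBP, 56 bases before the first start of SC5D, and 94 and 48 bases before the start of DHCR7 shown above. GGGCGG, present in 45.0%, lay 101 bases before the start of EBP, 184 bases before that of SC5D and at 4 places, 200, 187, 179 and 19 bases before the start, in DHCR7. CACGTG, present in 7.26%, was found for SC5D alone of the 3, 131 bases before its first start. The other DHCR7 window held none of the 5 motifs. Among 17 of the 20 enzymes of cholesterol synthesis that the table covers, 14 had a CCAAT, 15 a GGGCGG and 2 (SC5D and LSS) a CACGTG, against 39.7%, 48.3% and 8.77% of all genes. Of the same 17 enzymes, 0 had either form of the sterol regulatory element, against 0.0586% (long) and 1.39% (short) of all genes. Its absence is thus not particular to EBP, SC5D and DHCR7. These are matches of letters in short windows, and binding of a factor was not measured here.

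Total counts were 7168542 to 15178276 per library, with a median of 12261644. The 3 genes had at least 167 counts in every library. HEC-1A libraries had 7 of 7 epithelial and 3 of 8 stromal markers at 1 CPM or more, the stromal ones summing to 8.44 to 14.6 CPM. T-HESC libraries had 8 of 8 stromal markers, summing to 17178 to 27111 CPM with DMSO and 12846 to 20615 CPM with AG-205. They had 4 of 7 epithelial ones, summing to 221 to 387 CPM, with CDH1 and ESRP1 at 3 counts or fewer. With DMSO, KRT19 was about as high as in HEC-1A (log2 difference 0.07). The immune markers and the endothelial markers, each list on its own, summed to at most 1.5 CPM in any library. On the first principal component of the T-HESC libraries (51.6% of the variance), AG-205 replicate 1 had a score of 89.3 and the other 5 libraries -37.9 to 2.77, so values that rest on that library are also given without it. edgeR put the biological coefficient of variation at 10.1% for HEC-1A and at 33.6% for T-HESC. Each level is a CPM, the count of a gene relative to the TMM-adjusted total of its library, and means carry the SD of the 3 libraries behind them. A CPM is a share of the RNA sequenced, so fewer expressing cells and less RNA per cell cannot be told apart.

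EBP, the isomerase, had, with the same treatment, higher levels in HEC-1A than in T-HESC, and in both lines higher levels with AG-205. In HEC-1A its level was 111, 86.7 and 91.2 CPM in DMSO replicates 1 to 3 and 306, 319 and 346 CPM with AG-205. In T-HESC it was 41.9, 42.0 and 46.8 CPM with DMSO and 217, 158 and 120.3 CPM with AG-205. The lowest AG-205 library was above the highest DMSO library in each line, and in T-HESC replicate 1 was the highest of the AG-205 libraries. The group means were 96.3 ± 12.8 and 324 ± 20.8 CPM in HEC-1A and 43.6 ± 2.80 and 165 ± 48.9 CPM in T-HESC (SD, n = 3), DMSO first.

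SC5D, the desaturase, had the lowest counts of the 3 genes. Its level in HEC-1A was 27.4, 26.5 and 29.5 CPM with DMSO and 96.4, 105 and 116 CPM with AG-205. In T-HESC it was 18.4, 17.2 and 16.7 CPM with DMSO and 67.6, 81.5 and 41.6 CPM with AG-205. Here too the groups of a line did not overlap, and replicate 1 of T-HESC with AG-205 lay between the other libraries of its group. The means were 27.8 ± 1.58 and 106 ± 9.67 CPM in HEC-1A and 17.5 ± 0.907 and 63.5 ± 20.3 CPM in T-HESC (SD, n = 3).

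DHCR7, the reductase, had the widest range of the 3. In HEC-1A its level was 207, 201 and 201 CPM with DMSO and 966, 939.9 and 782 CPM with AG-205. In T-HESC it was 53.8, 48.6 and 55.2 CPM with DMSO and 115, 392 and 423 CPM with AG-205. Every AG-205 library was again above the DMSO libraries of its line, but replicate 1 of T-HESC was far below the other AG-205 libraries, the opposite of its place for EBP. The means were 203 ± 3.29 and 896 ± 99.8 CPM in HEC-1A and 52.5 ± 3.52 and 310.0 ± 169 CPM in T-HESC (SD, n = 3).

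**Figure D1:**
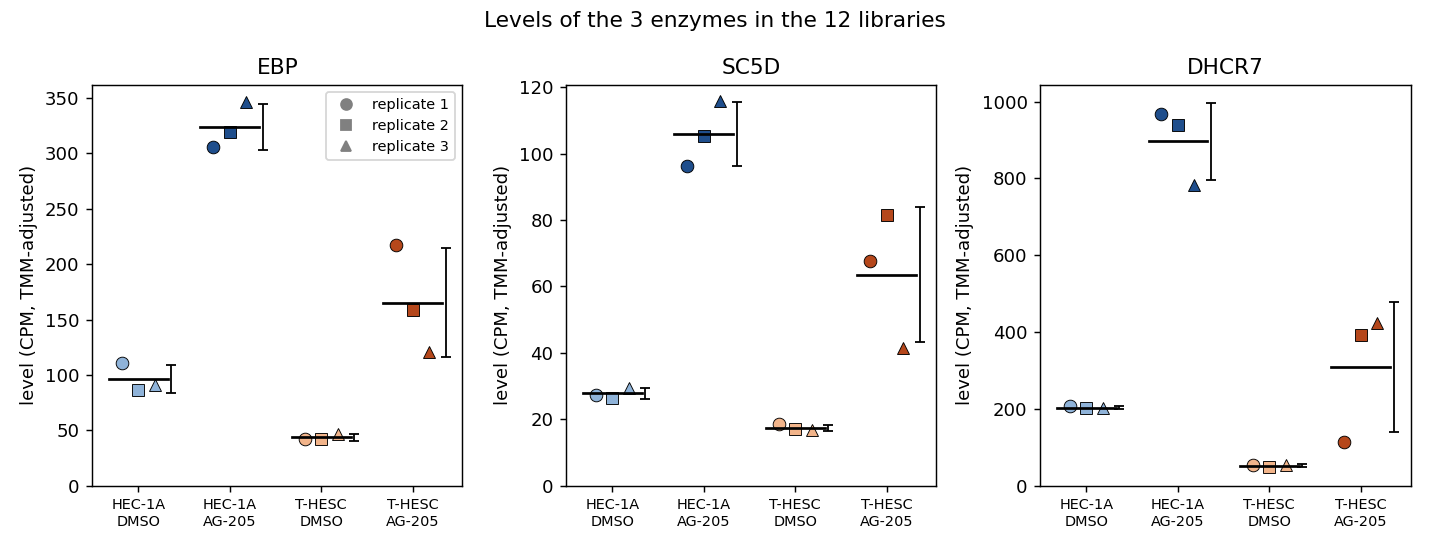
Level (CPM on the TMM-adjusted library total, linear axis from 0) of EBP, SC5D and DHCR7 in the 12 libraries, by group; each symbol is a library, the line the mean and the bar the SD over 3 libraries. AG-205 libraries lie above the DMSO libraries of their line in all 3 panels, and in T-HESC replicate 1 is the highest for EBP (217 CPM) and the lowest for DHCR7 (115 CPM).

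The order of the 4 groups was the same for the 3 genes: HEC-1A with AG-205, T-HESC with AG-205, HEC-1A with DMSO, T-HESC with DMSO. Neighbours in that order did not overlap for EBP and SC5D. How many of all genes share this order was not counted, so it is given as a description. For DHCR7, T-HESC with AG-205 and HEC-1A with DMSO overlapped, through replicate 1 of T-HESC with AG-205 (115 CPM against 201 CPM for the lowest HEC-1A DMSO library). The coefficient of variation was 1.62% to 13.3% in the other groups and 29.6% for EBP, 31.9% for SC5D and 54.7% for DHCR7 in T-HESC with AG-205.

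Between genes, levels were compared per kilobase of exon length (1768 bp for EBP, 10054 bp for SC5D and 6878 bp for DHCR7). On that scale EBP was above DHCR7 and DHCR7 above SC5D in each group: with DMSO the means were 54.4, 29.5 and 2.76 CPM per kb in HEC-1A and 24.7, 7.64 and 1.74 CPM per kb in T-HESC. With AG-205 they were 183, 130.3 and 10.5 CPM per kb in HEC-1A and 93.5, 45.1 and 6.32 CPM per kb in T-HESC. SC5D was thus the lowest by far. Per kilobase of the longest transcript in place of all exons, SC5D was again the lowest in each group, while DHCR7 (314 CPM per kb) was above EBP (288 CPM per kb) in HEC-1A with AG-205, so the order of those 2 genes depends on the length used.

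In HEC-1A, all 3 enzymes rose with AG-205, by 3.37-fold to 4.42-fold. A gene was called when the adjusted p of edgeR's quasi-likelihood test was under 0.05 and its log2 fold change above 1 or below -1, and 2.58% of the 14122 genes tested in this line were called higher. EBP rose 3.37-fold (2.88 to 3.93 at 2 SE on either side), or 1.75 on the log2 scale (SE 0.111, edgeR adjusted p = 6.10e-07). SC5D rose 3.81-fold (3.29 to 4.404), which is 1.93 on the log2 scale (SE 0.105, edgeR adjusted p = 1.44e-07). DHCR7 rose 4.42-fold (3.82 to 5.10), or 2.14 on the log2 scale (SE 0.104, edgeR adjusted p = 5.12e-08), which placed it 17th by p among all genes, with SC5D 24th and EBP 37th. The 3 log2 fold changes had a median of 1.93, where that of all genes tested was 0.01. The AG-205 libraries all exceeded the DMSO libraries for these 3 genes, as they did for 16.6% of all genes tested. Epithelial markers also moved in this line, with 2 of 7 called higher, CLDN4 (log2 fold change 1.22) and KRT19 (1.09), EPCAM the lowest (-0.10), and a sum of 1394 to 1549 CPM with DMSO and 2078 to 2145 CPM with AG-205. Their part in the result was not tested.

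In T-HESC, the fold changes were of similar size but with larger SEs, and none of the 3 enzymes was called. The log2 fold change of EBP was 1.91 (SE 0.274, edgeR adjusted p = 0.0841) or 3.77-fold, with 2.58 to 5.51 at 2 SE on either side. That of SC5D was 1.85 (SE 0.287, edgeR adjusted p = 0.106) or 3.61-fold, with 2.42 to 5.37. That of DHCR7 was 2.54 (SE 0.458, edgeR adjusted p = 0.158) or 5.81-fold, with 3.08 to 10.97. Only 0.08% of the 13753 genes tested in this line, 11 genes, were called higher. At an unadjusted p under 0.05 there were 740 genes. For all 3 enzymes the lowest AG-205 library exceeded the highest DMSO library, as for 5.87% of all genes tested. Their median log2 fold change was 1.91, against 0.02 over all genes. Stromal markers ran from -1.09 (COL1A1) to 0.26 (VIM) and the epithelial ones tested from -1.47 (KRT18) to 1.05 (KRT19), with 0 called. The part of the markers in the result was not tested.

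The T-HESC calls changed when AG-205 replicate 1 was left out. Then all 3 enzymes were called, with log2 fold changes of 1.65 for EBP (edgeR adjusted p = 0.0129), 1.79 for SC5D (edgeR adjusted p = 0.0465) and 2.93 for DHCR7 (edgeR adjusted p = 0.00113), and 72 genes in all passed in place of 11. They were not called with any other T-HESC library left out. DESeq2, which the study used in an earlier version with the same thresholds, called each enzyme on all 6 libraries. Its log2 fold changes were 1.90, 1.85 and 2.55, with DESeq2 adjusted p from 3.03e-07 for EBP to 1.37e-05 for SC5D. The lack of a call in T-HESC thus holds for edgeR's test as used here.

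A single line of 3 libraries against 3 cannot give an exact permutation p below 0.10, so both lines were also tested jointly, with the treatment labels permuted within each line. Averaged over the lines, the log2 difference between AG-205 and DMSO was 1.82 for EBP, 1.87 for SC5D and 2.24 for DHCR7. Each gave an exact two-sided permutation p of 0.005, the smallest that the 400 arrangements allow. Every AG-205 library was above the DMSO libraries of its line, and any gene for which that holds in both lines reaches this p. The p thus restates that separation, and the share of all genes that reach it was not counted. With signs flipped within same-numbered pairs of libraries instead, the exact p was 0.03125 for each of the 3 genes. That is the smallest p the sign flips allow, so it too restates the separation, and the numbers were not taken as pairs. Leaving out any 1 of the 12 libraries kept the mean difference between 1.71 and 2.55 over the 3 genes.

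The difference of the AG-205 effect between the lines did not pass the test for any of the 3 enzymes. The effect in T-HESC minus that in HEC-1A was 0.17 for EBP (SE 0.282), -0.07 for SC5D (SE 0.297) and 0.42 for DHCR7 (SE 0.490) on the log2 scale, with edgeR adjusted p of 1.00, 1.00 and 0.985 among 16132 genes, 0.174% of which were called in either direction. As ratios of folds, 2 SE on either side of these differences covered 0.763 to 1.67 for EBP, 0.634 to 1.44 for SC5D and 0.678 to 2.64 for DHCR7. The DHCR7 difference moved with single libraries: it was 0.81 without T-HESC AG-205 replicate 1 (SE 0.173, edgeR adjusted p = 0.0679), 0.20 without T-HESC AG-205 replicate 2 and 0.13 without replicate 3. Without replicate 1 that of EBP was -0.071.

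Without AG-205, the 3 enzymes were lower in the stromal than in the epithelial line. DHCR7 in T-HESC was at 0.257 of its level in HEC-1A, a log2 difference of -1.96 (SE 0.0907, edgeR adjusted p = 2.04e-07), and EBP at 0.449, a log2 difference of -1.15 (SE 0.118, edgeR adjusted p = 2.97e-05). SC5D, at 0.624 of its HEC-1A level (log2 difference -0.68, SE 0.111, edgeR adjusted p = 0.000547), passed the test but not the fold limit. The lines differ widely: 22.3% of the 14789 genes tested were called lower in T-HESC, and for 38.8% every T-HESC library was below every HEC-1A library, as for these 3 enzymes. Under AG-205, T-HESC stayed below HEC-1A in each library for EBP, SC5D and DHCR7, so the order of the lines was kept. The share of all genes with that order under AG-205 was not counted, so this describes the 3 genes only. Since the lines differ in origin, donor and transformation, what goes with these differences cannot be told apart.

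The proportions of the 3 transcripts were examined as ratios within a library, which do not depend on how libraries are scaled. The CPM of DHCR7 over that of EBP was 1.87, 2.32 and 2.21 with DMSO and 3.16, 2.95 and 2.26 with AG-205 in HEC-1A. In T-HESC it was 1.28, 1.16 and 1.18 with DMSO and 0.530, 2.48 and 3.51 with AG-205. In 5 of the 6 AG-205 libraries the ratio was thus above the median of the DMSO libraries of its line, and replicate 1 of T-HESC was below all of them. Over both lines, the DHCR7/EBP ratio changed by 0.42 on the log2 scale (SE 0.429, -0.44 to 1.28 at 2 SE), with an exact permutation p of 0.34 (two-sided, 400 arrangements) and 0.578 after Benjamini-Hochberg adjustment over the 3 pairs. The DHCR7/SC5D ratio changed by 0.37 (SE 0.386, -0.40 to 1.14, exact permutation p = 0.385, adjusted 0.578). The EBP/SC5D ratio changed by -0.05 (SE 0.134, -0.32 to 0.22, exact permutation p = 0.715, adjusted 0.715), the smallest change with the narrowest interval of the 3.

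Replicate 1 of T-HESC with AG-205 decided the DHCR7 ratios. Without it, DHCR7/EBP rose by 0.84 (exact permutation p = 0.01, adjusted over the 3 pairs 0.03) and DHCR7/SC5D by 0.71 (exact permutation p = 0.02, adjusted 0.03), whereas EBP/SC5D changed by -0.12 (exact permutation p = 0.37). With all 12 libraries, or with any other one left out, no pair passed.

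**Figure D2:**
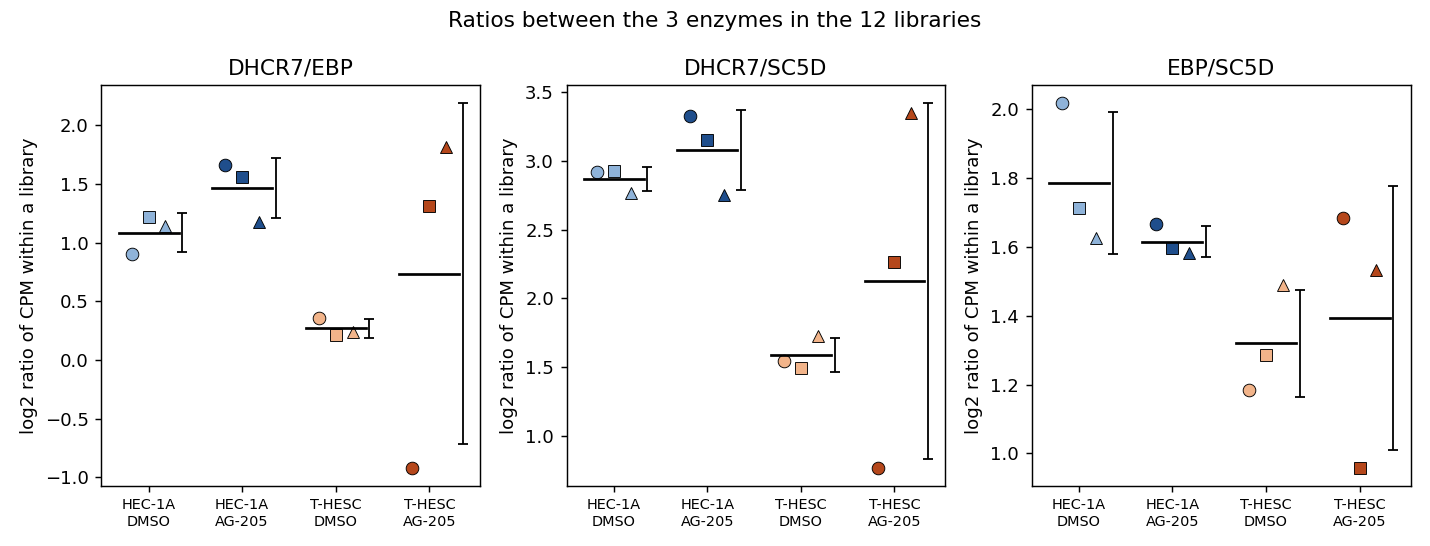
Log2 ratio of the CPM of 2 enzymes within each of the 12 libraries, for DHCR7/EBP, DHCR7/SC5D and EBP/SC5D, by group; circles, squares and triangles are replicates 1, 2 and 3, the line is the mean and the bar the SD over 3 libraries. Replicate 1 of T-HESC with AG-205 is the lowest point of both panels with DHCR7 (-0.92 for DHCR7/EBP). For EBP/SC5D (1.68) it is the highest of the T-HESC libraries, within the range of the HEC-1A libraries.

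The same library was uneven along the rest of the pathway. Set against the mean of replicates 2 and 3 of its group, its log2 CPM was 0.65 higher for EBP (percentile 80.3 among 10707 genes), 0.21 higher for SC5D (percentile 62.6) and -1.82 for DHCR7 (percentile 3.34). The other enzymes furthest down in it were CYP51A1 (-2.88), the lanosterol demethylase, and LSS (-1.74), the lanosterol synthase. Of 17 other enzymes of the pathway, replicate 1 was the lowest of the 3 AG-205 libraries for 9, between the others for 6 and the highest for 2. Over all 10707 genes it was the lowest for 44.3% and the highest for 38.3%. What sets this culture apart was not tested.

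**Figure D3:**
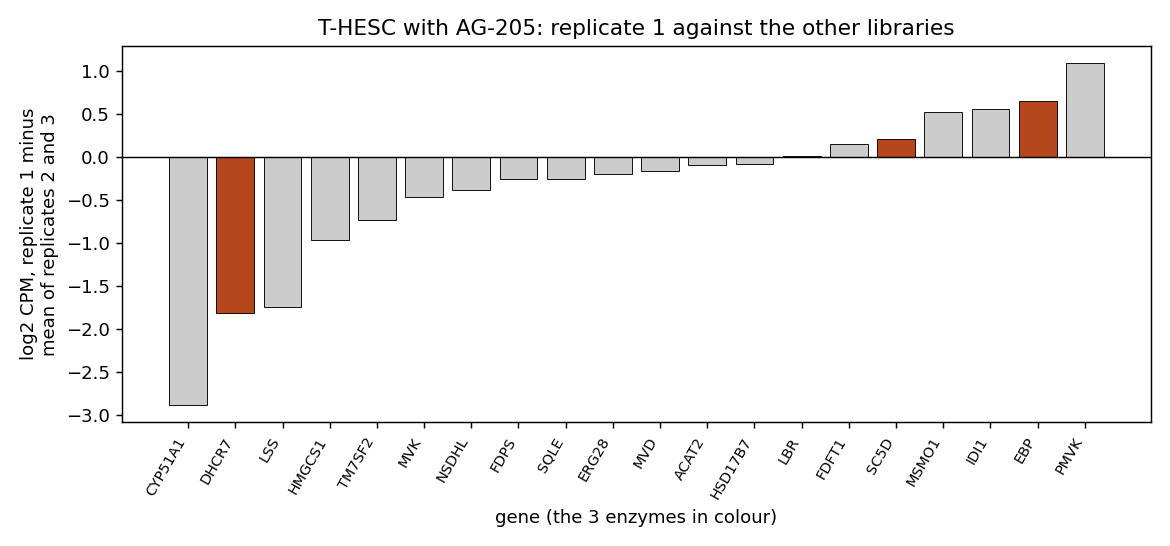
Log2 CPM of replicate 1 minus the mean of replicates 2 and 3 in T-HESC with AG-205, for 20 enzymes of cholesterol synthesis in rising order; coloured bars are EBP, SC5D and DHCR7, and each bar rests on 3 libraries. DHCR7 (-1.82) stands beside CYP51A1 (-2.88) and LSS (-1.74) at the low end, while EBP (0.65) is near the high end.

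Other enzymes of cholesterol synthesis, 17 genes with ERG28, a scaffold protein of the demethylation complex, were mostly higher with AG-205 in HEC-1A, and fewer were called in T-HESC. In HEC-1A 15 of the 17 were called higher, where 2.58% of all genes tested were, and 0 lower. Their median log2 fold change was 2.00, against 0.01 over all genes. In T-HESC 8 were called higher, where 0.08% of all genes tested were, and 0 lower. The median there was 2.38, against 0.02 over all genes. The list was chosen with such results known, and its count is a description. In HEC-1A, TM7SF2, a reductase of the step after lanosterol demethylation, changed most (3.48), and LBR (-0.23), a protein of the nuclear envelope with the same reductase activity, and PMVK (0.04), a kinase of the mevalonate steps, were not called. In T-HESC, HMGCS1, which makes HMG-CoA, changed most (3.74) and LBR least (0.20). The 8 called in T-HESC were HMGCS1, MVD, IDI1, FDPS, FDFT1, SQLE, MSMO1 and HSD17B7, of which the last 2 act in the demethylation just ahead of EBP. The fold changes of EBP, SC5D and DHCR7 in HEC-1A (1.75, 1.93 and 2.14) thus stood on either side of the median of the other enzymes. Without T-HESC AG-205 replicate 1, 14 of the 17 were called in T-HESC. Without AG-205 replicate 3 the number was 4, and without AG-205 replicate 2 or any single DMSO library it was 0. With DMSO, 2 of the 17 were called higher in T-HESC than in HEC-1A, ACAT2 (1.01) and LSS (1.18), and 4 lower, PMVK, CYP51A1, TM7SF2 and HSD17B7, where 22.3% of all genes tested were called in each direction.

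**Figure D4:**
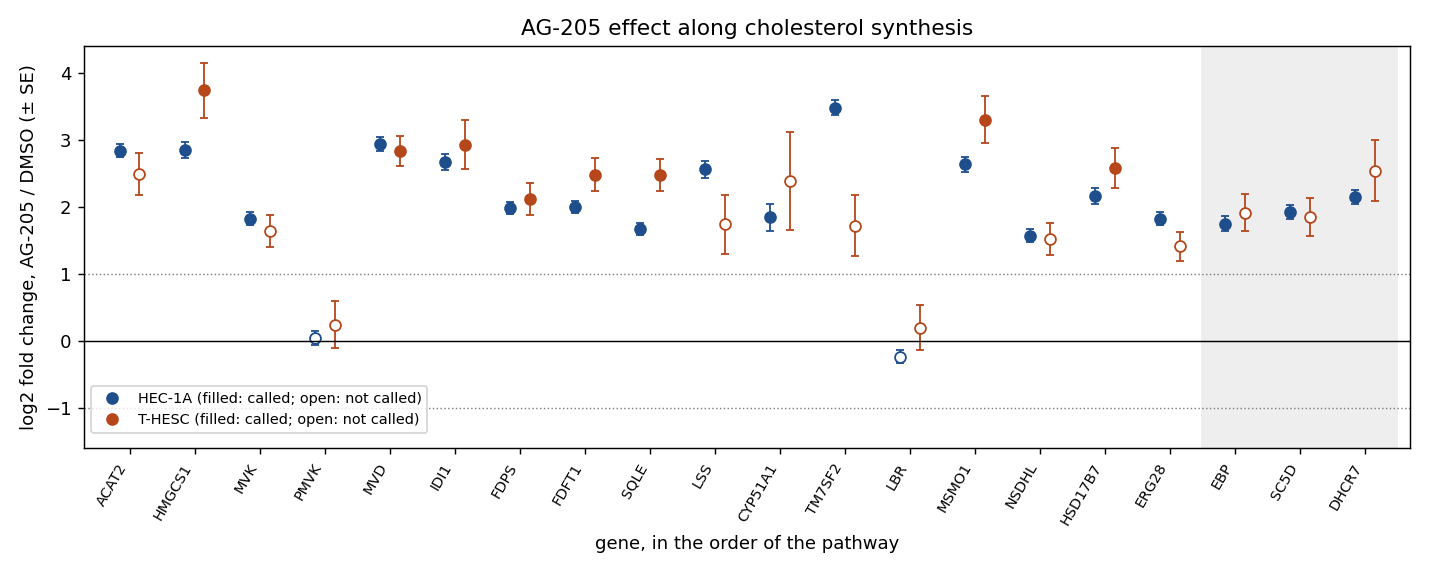
Log2 fold change, AG-205 over DMSO, for 20 enzymes in pathway order, in HEC-1A and T-HESC (6 libraries per line). Bars are the SE worked back from the F statistic of edgeR's test. Filled points were called, dotted lines mark the fold limit and the grey band holds EBP, SC5D and DHCR7. The 3 enzymes lie at 1.75 to 2.14 in HEC-1A, where all are called, and at 1.85 to 2.54 in T-HESC, where none is.

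Relatives of the 3 proteins did not move as a group. Of 8 listed, 6 were tested in each line, and 2 were called higher in HEC-1A: TM7SF2, which is related to DHCR7, and TMEM97 (log2 fold change 1.58, SE 0.0876, edgeR adjusted p = 1.49e-07), the sigma-2 receptor, which shares a membrane domain with EBP. Of all genes tested, 2.58% were called higher in HEC-1A and 0.08% in T-HESC. In T-HESC 0 of the relatives were called, with TM7SF2 at 1.72 (SE 0.450, edgeR adjusted p = 0.445) and TMEM97 at 1.68 (SE 0.395, edgeR adjusted p = 0.383). LBR, listed with TM7SF2 on the side of DHCR7, was at -0.23 (HEC-1A) and 0.20 (T-HESC). EBPL, the paralogue of EBP, was at -0.18 (HEC-1A) and 0.12 (T-HESC). On the side of SC5D, FAXDC2 was at 0.67 (SE 0.216, edgeR adjusted p = 0.0638) and -0.08. EPHX1, the microsomal epoxide hydrolase, was at 0.01 and -0.08. CH25H had 0 counts in all libraries, and TM6SF2 had at most 12.

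The proteins that feed electrons to these steps showed smaller changes. Of 5 genes (cytochromes b5, their reductases and POR), 0 were called in either line. That is close to the share of all genes tested that were called, 2.78% (HEC-1A) and 0.08% (T-HESC). The medians of the 5 genes were 0.14 (HEC-1A) and 0.15 (T-HESC). CYB5B, an outer mitochondrial cytochrome b5, was at 0.53 (edgeR adjusted p = 0.00303) and POR, the cytochrome P450 reductase, at 0.49 (edgeR adjusted p = 0.00469) in HEC-1A, both under the fold limit, and the lowest was CYB5A, a cytochrome b5 of the endoplasmic reticulum (0.03). In T-HESC the values ran from -0.22 for CYB5R3 to 0.41 for POR. With DMSO, CYB5R3, which reduces cytochrome b5, was higher in T-HESC than in HEC-1A (log2 difference 2.39) and POR lower (-1.56).

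Of 7 sterol regulators, INSIG1, the retention protein, alone was called, in both lines (at 3.22 for HEC-1A and 3.13 for T-HESC). Of all genes tested, 2.78% were called in HEC-1A and 0.08% in T-HESC, in either direction. SREBF2, the gene of SREBP2, was at 0.85 (SE 0.116, edgeR adjusted p = 0.000549) in HEC-1A, under the fold limit, and at 1.21 (SE 0.435, edgeR adjusted p = 0.703) in T-HESC. Over the 7 genes the median was -0.0017 for HEC-1A and -0.11 for T-HESC, and the lowest was MBTPS1, a protease that cuts SREBP, at -0.19 and -0.38. With DMSO, INSIG1 was higher in T-HESC than in HEC-1A (1.77), and SREBF2 (-1.32) and SCAP (-1.65) were lower, as were EBP and DHCR7.

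Genes next to the 3 enzymes on the chromosome did not show changes of their size. NADSYN1, an enzyme of NAD synthesis on the opposite strand 241 bp from DHCR7, was at 0.40 in HEC-1A (SE 0.0910, edgeR adjusted p = 0.0135), under the fold limit. Its AG-205 libraries there were all above the DMSO libraries, as for 16.6% of all genes tested. In T-HESC it was at 0.08 (SE 0.309). SHANK2, 175616 bp away on the other side of DHCR7, was at -0.33 in HEC-1A (SE 0.201, edgeR adjusted p = 0.335) and was not tested in T-HESC. PORCN, 985 bp from EBP, had log2 fold changes of 0.16 (HEC-1A) and -0.11 (T-HESC), and TBC1D25, on its other side, at 0.22 and 0.30. SC5D has no near neighbour among the genes tested: TECTA lay 101191 bp and SORL1 138904 bp away. SORL1, a sorting receptor, was lower with AG-205 in HEC-1A (-0.61, SE 0.152, edgeR adjusted p = 0.0226), also within the fold limit.

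The likeness of profiles was measured as the root mean square distance between log2 CPM over the 12 libraries, each gene centred on its own mean, among 16131 genes. EBP and SC5D were close, 0.264 apart: SC5D was the nearest of all genes to EBP, and EBP the second nearest to SC5D after ERG28 (0.237). HSD17B7 (0.333), DBI (0.371), ERG28 (0.389) and QPRT (0.397) followed for EBP, and HSD17B7P2 (0.276), RUSC1-AS1 (0.298) and FDPS (0.340) for SC5D. For DHCR7 the 5 nearest were FASN (0.408), the fatty acid synthase, NEU1 (0.469), TMEM97 (0.471), CYP51A1 (0.471) and TNFSF9 (0.495), and HSD17B7 came next (0.563). It was 0.749 from EBP and 0.809 from SC5D, places 16 and 23 in its own order. The median distance of all genes was 1.18 from EBP, 1.14 from SC5D and 1.57 from DHCR7. These points share libraries, scaling and the T-HESC replicate that stood apart, and the distances are given as a description.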

How the data were processed

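RNA of 12 cultures was polyA-selected and sequenced as read pairs. Per the submitters' processing notes and the study's methods, the authors used Trimmomatic 0.38 for trimming, HISAT2 2.1.0 for alignment to GRCh38 and featureCounts (Subread 2.0.0) with the Ensembl 94 annotation for counting. The authors deposited raw counts per gene, not normalized; strand and multi-mapping settings are not given in the sources used here. Of 58735 genes, 23756 had no count. The chi-square between libraries of the same group was 1.79 to 207 per degree of freedom, so none was a copy.

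Counts were analysed with edgeR 4.0.16 (TMM, filterByExpr, quasi-likelihood test, Benjamini-Hochberg over all genes tested) in R 4.3.3, separately for each line, for the lines with DMSO and, for the difference of effects, over 12 libraries. Calls needed an adjusted p under 0.05 and an absolute log2 fold change above 1. For edgeR, the SE was the absolute log2 fold change divided by the square root of the test's F statistic. CPM used the 12-library TMM factors. Single values were tested by exact permutation within lines. Positions came from GENCODE 44. Plots used matplotlib 3.10.9. Scripts were tested on simulated data.

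The 3 genes and all lists (other enzymes, relatives, electron donors, regulators, markers, motifs) were chosen with earlier results of these data known, and some genes of the lists are not reported here. Named by rule were the 3 genes and, of each list of pathway genes, the highest and lowest in each line and those called, each relative, the nearest tested genes on the chromosome and the 5 nearest profiles. Genes named outside this rule (PMVK, POR in HEC-1A, SREBF2, the marker genes, HSD17B7 beside DHCR7, and CYP51A1 and LSS in the T-HESC library) were chosen after their values were seen. Alternatives were DESeq2 1.42.0, other scalings and filters, a replicate block, other thresholds and lengths, a fit of all 12 libraries, leaving out single libraries and, added after seeing the data, library quality weights (limma 3.58.1).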

Additional observations from a re-analysis of the deposited data

How the results depend on the processing

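In HEC-1A, EBP, SC5D and DHCR7 stayed called higher under all 16 alternatives run, at 1.68 to 1.86, 1.85 to 1.99 and 2.09 to 2.22 on the log2 scale. In both lines, the alternatives with other thresholds reuse the main fit, so their fold changes could not differ. Dropping the fold limit could only add calls. The number of genes called there, 393, was 141 when all 12 libraries were fitted together and 1643 with no fold limit.

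In T-HESC the direction held under the 16 alternatives, and 5 of them made the call. Log2 fold changes of EBP, SC5D and DHCR7 were 1.90, 1.85 and 2.55 with DESeq2 (adjusted p = 3.03e-07, 1.37e-05 and 1.18e-05), 1.88, 1.84 and 2.55 without filtering low counts (edgeR adjusted p = 9.32e-06, 3.07e-05 and 2.46e-09), 1.92, 1.86 and 2.56 with all 12 libraries fitted together (edgeR adjusted p = 0.000497, 0.00094 and 0.00398), and 1.82, 1.98 and 2.83 with library quality weights (limma adjusted p = 0.000439, 0.00105 and 0.000173). Leaving out single libraries gave 1.65 to 2.09, 1.61 to 2.08 and 2.27 to 2.93, called without AG-205 replicate 1 alone. The 11 genes called there were 115 with DESeq2, 181 with no filter, 160 with all 12 libraries, 333 with quality weights, 0 at an adjusted p under 0.01, and 0 to 72 with single libraries left out. The other enzymes called, 8, were 15, 15, 14, 15 and 0 under the same settings, 5 with the replicate block and 0 to 14 with single libraries left out. The cause of these shifts was not tested.

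With DMSO, SC5D was called lower in T-HESC (-0.68) once the fold limit was dropped, when 10664 genes in place of 6593 were called. For the difference between the lines, the sign for SC5D turned with quality weights (0.13) and with single libraries left out (-0.30 to 0.17), and that for EBP with a library left out (-0.071 to 0.36), while that for DHCR7 ran from 0.13 to 0.81, none of them called. The 28 genes called for that difference were 86 with DESeq2, 141 with no filter, 0 with the replicate block, 380 with quality weights, 4 at an adjusted p under 0.01 and 4 to 80 with single libraries left out. Ratios with single libraries left out were 0.15 to 0.84 for DHCR7/EBP, 0.069 to 0.71 for DHCR7/SC5D and -0.12 to 0.059 for EBP/SC5D, whose sign turned.

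Same-numbered AG-205 and DMSO libraries did not deviate together (correlations -0.07, 0.24 and -0.00 in HEC-1A and 0.20, -0.49 and -0.03 in T-HESC, with the best match its own number for 1 of 6), so the numbers were not taken as pairs. With the replicate block the HEC-1A calls stayed, and T-HESC gave log2 fold changes of 1.87, 1.80 and 2.35 for EBP, SC5D and DHCR7 (edgeR adjusted p = 0.143, 0.143 and 0.165), not called, as without it; beyond those counts, the block changed no other call of the 3 genes.

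Scaled on total counts without TMM, mean levels were 372 CPM for EBP in HEC-1A with AG-205 and 38.5 CPM in T-HESC with DMSO, 31.5, 122 and 15.4 CPM for SC5D in HEC-1A with DMSO and AG-205 and T-HESC with DMSO, and 230.3, 1029 and 46.4 CPM for DHCR7 in the same groups. Per kilobase of the longest transcript, levels in HEC-1A DMSO, HEC-1A AG-205, T-HESC DMSO and T-HESC AG-205 were 85.6, 288, 38.8 and 147 CPM per kb for EBP, 4.06, 15.4, 2.55 and 9.27 for SC5D and 71.3, 314, 18.4 and 109 for DHCR7. At this depth each of the 3 genes had 167 counts or more in a library.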
